A study of Trichoderma reesei with 18 samples.

Results

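The light responses of 2 kinase mutants of the filamentous fungus Trichoderma reesei were set against each other, gene by gene. A light response is the log2 ratio of a gene's level in constant light to its level in constant darkness. The contrast is the response of Δ80186 minus that of Δ21168, so a positive contrast means a response that is more upward, or less downward, in Δ80186. Of the 18 libraries of the series, 12 enter this contrast, 3 of each mutant in each light condition, chosen by their titles. The other 6 libraries are the wild type QM6a (WT) in darkness and in light, which served to estimate the spread and as a reference.

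All cultures were mycelium on minimal medium with cellulose, harvested after 96 h. Δ80186 lacks the gene TR80186 and Δ21168 lacks TR21168, each in the QM6a background, and the light treatment was constant darkness or constant light throughout growth. The series title names the genes as the HOG and pheromone pathway MAPK kinases of this fungus. How many transformants stand for each mutant, and whether replicates were grown as separate cultures, is not in the labels. The p-values therefore reflect variation among these libraries, and that variation may be technical.

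A MAP kinase kinase is the middle enzyme of a relay of protein kinases and activates the MAP kinase below it. In fungi the HOG (high osmolarity glycerol) cascade is known for osmotic and other stress responses, and the pheromone cascade for mating and cell fusion. Light is sensed in T. reesei by photoreceptors such as the blue light regulators BLR1 and BLR2, and it is known to alter cellulase expression, development and secondary metabolism.

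Total counts ranged from 7945697 to 12415791 in the 6 libraries of Δ21168 and from 11626426 to 15541825 in those of Δ80186. Replicates varied most in Δ21168 in darkness, where the biological coefficient of variation common to all genes was 0.236. In the other 5 groups it was 0.0764 to 0.131. Its dark replicate 1 correlated less well with its group (rank correlation 0.979 and 0.982) than replicates 2 and 3 did with each other (0.989), so counts without it are given below. Library numbers form separate series for the 2 mutants, so in any direct comparison of levels between them the library series and the genotype cannot be told apart. The WT library numbers lie in the series of Δ80186, so the same holds for levels of WT beside those of Δ21168. A shift between the series that is equal in darkness and in light cancels in the contrast.

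The 10879 rows carry locus codes of a letter and a number, of which 0 could be paired with a gene name, so functions are not given here. The exceptions are 3 rows named mat1-1-1, mat1-1-2 and mat1-1-3, genes of one mating type idiomorph. QM6a is known as a strain of the opposite mating type. Rows mat1-1-2 and mat1-1-3 had 0 reads in all 18 libraries, and mat1-1-1 had 5 reads in all, 3 of them in the mutants. TrD0367C had 0 to 2 reads in each Δ80186 library and 751 to 2269 in each of the 12 others, while TrE0746W had 0 reads in each Δ21168 library and 987 to 1710 in the others. Since both codes were picked by this loss of reads, they do not check the labels, and the fitted contrast of TrD0367C, which counts among the negative calls below, rests on 4 reads in Δ80186.

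The mutants answered light differently at many genes. Of 9079 genes tested, 3977 (43.8%) had a contrast different from 0 at an adjusted p under 0.05, from edgeR's quasi-likelihood test with Benjamini-Hochberg adjustment. Of these, 1961 were positive (21.6% of genes tested) and 2016 negative (22.2%). The balance depended on scaling, with 49.3% of the called genes positive under TMM factors, 53.1% under DESeq2 size factors and 36.6% under library totals, which moved the median contrast of all genes from −0.02 to −0.15. Contrasts of at least 2-fold were called for 789 positive genes (8.69%) and 772 negative genes (8.5%). Among these 1561 genes, 1324 were called with the same sign in each of the 12 fits that leave out a mutant library, and 1481 without dark replicate 1 of Δ21168.

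The responses that make up the contrast were themselves widespread. Light changed 4836 genes in Δ80186 (53.3%) and 5469 in Δ21168 (60.2%). In 2631 genes it acted in the same direction in both mutants, and for 1710 of these the contrast was not called. In 669 genes it acted in opposite directions.

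**Figure D1:**
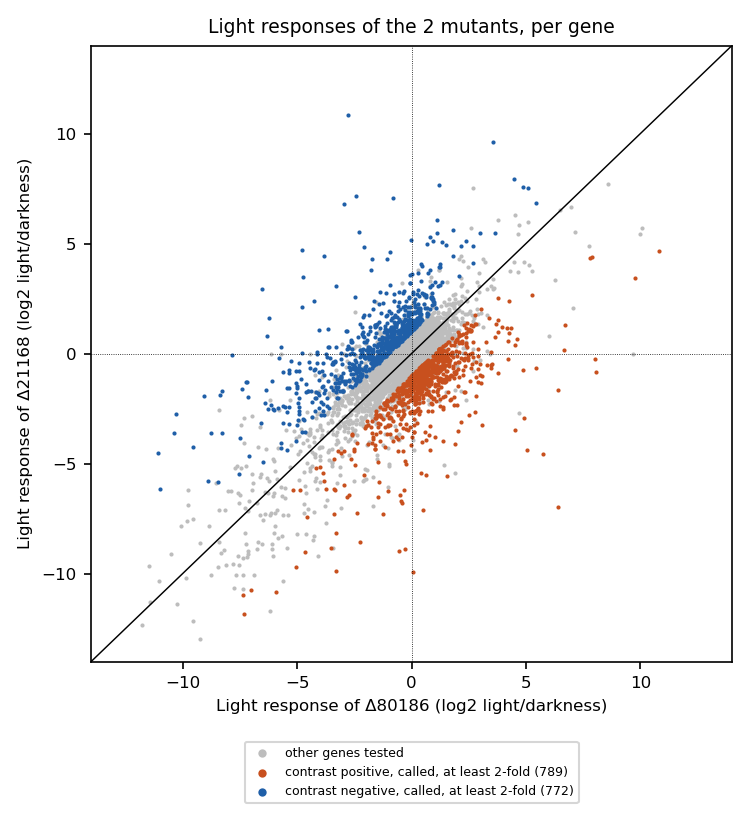
Light response of each of the 9079 genes tested in Δ80186 (x axis) and in Δ21168 (y axis), both log2 of light over darkness. Genes with a called contrast of at least 2-fold lie off the line of equal response, 789 below it (positive) and 772 above it (negative).

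The 1561 genes with a contrast of at least 2-fold fell into classes by what light did in each mutant. Opposite responses were the case in 223 genes that rose in Δ80186 and fell in Δ21168, and in 153 that did the reverse. A call in Δ21168 alone was found for 411 genes, 181 higher and 230 lower in light. A call in Δ80186 alone was found for 352 genes, 151 higher and 201 lower. Over all genes tested, too, light responses were called more often in Δ21168 (60.2%) than in Δ80186 (53.3%) in the main fit. With limma's voom and group weights, which let the groups differ in spread, this order turned. That fit called 4512 light responses in Δ21168 and 5774 in Δ80186. The class counts given here rest on the main fit. Another 391 of the 1561 responded in the same direction by different amounts, and 31 had a called contrast without a called response in either mutant. All 31 lost their call in at least 1 of the 12 fits with a library left out, and all 376 with opposite responses kept it, which the calls required in both mutants favour.

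**Figure D2:**
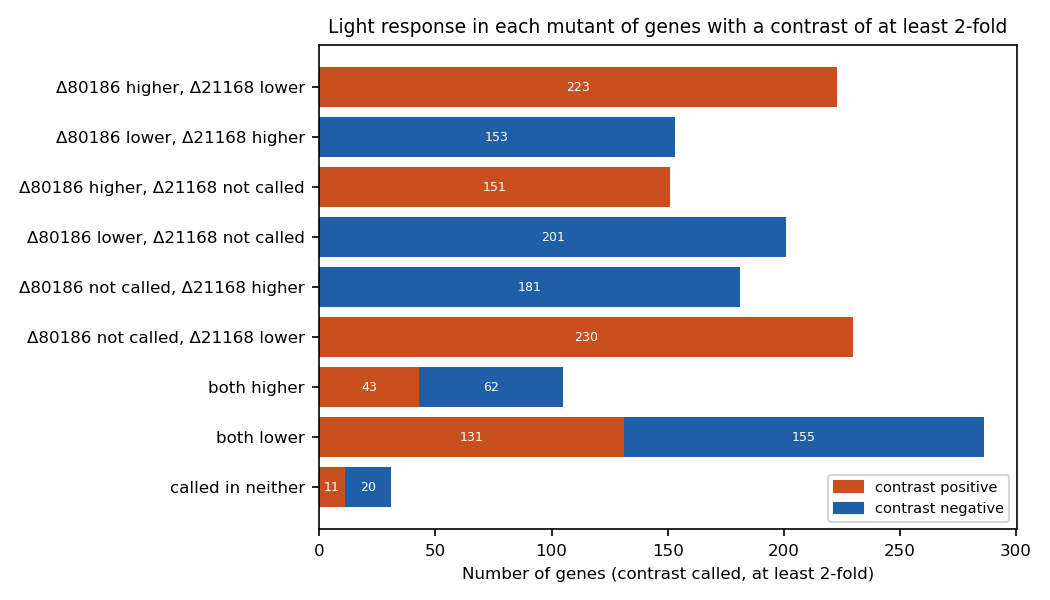
Number of genes with a called contrast of at least 2-fold (x axis) by the light response called in each mutant (rows); bar colours give the sign of the contrast. Opposite responses account for 223 positive and 153 negative genes.

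The single genes below were ranked among 2896 eligible genes, which were called with the same sign in all 12 fits without a mutant library, reached 5 CPM in their highest mutant group and had at least 10 reads in each mutant group. Among the eligible negative contrasts, that of TrB1415W had the smallest adjusted p. In darkness it stood at 98.9, 105 and 104 CPM (counts scaled to 1e+06 per library on TMM-adjusted library sizes) in Δ80186 and at 98.8, 97.9 and 92.4 in Δ21168. In light it stood at 123, 157 and 147 CPM in Δ80186 and at 1380, 1590 and 1630 in Δ21168. The dark groups nearly met and had no called difference, whereas the light groups lay far apart. WT in light, at 1330 ± 32.7 CPM (SD, n = 3), stood just below Δ21168. The contrast was −3.52 ± 0.12 (SE, log2; edgeR adjusted p = 2.5e-12). TrE1235W had the same pattern in light but a small called difference in darkness too (0.45), at 91.8 ± 3.85 and 122 ± 3.3 CPM in Δ80186 in darkness and in light and at 67.2 ± 7.42 and 1140 ± 166 CPM in Δ21168 (contrast −3.67 ± 0.15, adjusted p = 2.6e-11). In both genes the small rise in Δ80186 passed the test, by 0.47 and 0.41 on the log2 scale, against 3.99 and 4.08 in Δ21168.

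The positive contrasts with the smallest adjusted p came with a loss of transcript in Δ21168 in light. TrB1563C was at 103, 106 and 109 CPM in darkness and 109, 96.5 and 102 CPM in light in Δ80186. In Δ21168 it was at 43.3, 44.6 and 55.4 CPM in darkness and 1.9, 3.5 and 2.6 CPM in light. Its level in Δ80186 was thus the same within its spread in both conditions (response −0.04 ± 0.11), whereas every light value of Δ21168 lay below every dark one (−4.14 ± 0.15), and the contrast was 4.10 ± 0.18 (adjusted p = 8.8e-11). TrA1632W had a response of −0.44 in Δ80186, from 458 ± 19.4 to 338 ± 21.4 CPM, and of −3.81 in Δ21168, from 134 ± 19.3 to 9.52 ± 1.59 CPM (contrast 3.37 ± 0.15, adjusted p = 1e-10). Both genes were already lower in Δ21168 in darkness. The WT responses, −2.42 at TrB1563C and −1.95 at TrA1632W, lay between those of the mutants.

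**Figure D3:**
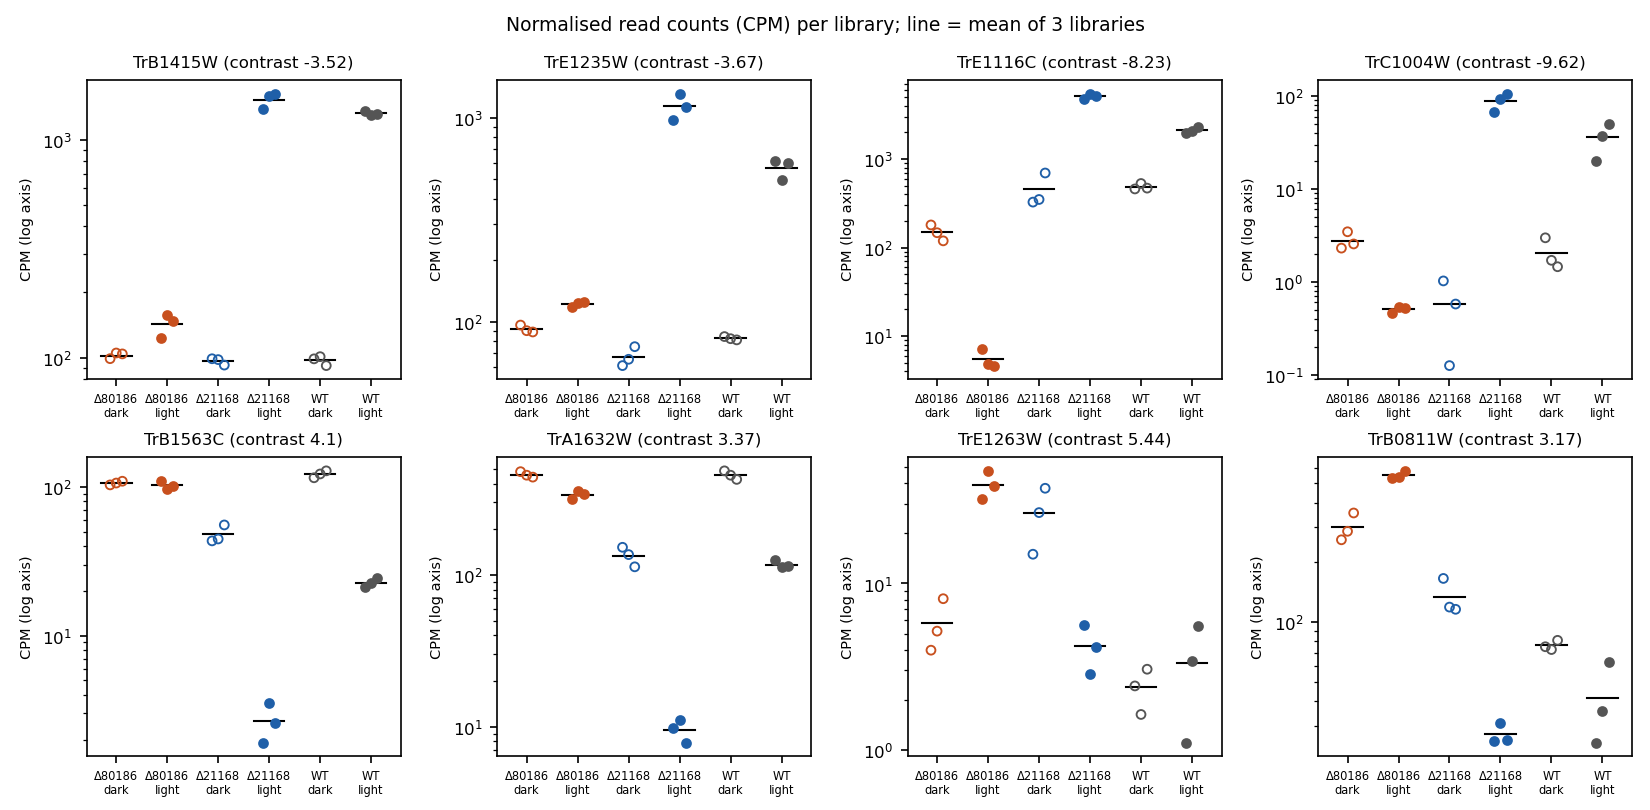
Level in CPM (log axis) of 8 genes in each library of the 6 groups; open circles are dark and filled circles light libraries, and lines are means of 3. TrB1415W and TrE1235W rise steeply in Δ21168 and WT only slightly in Δ80186, TrE1116C and TrC1004W move in opposite directions in the mutants, and TrB1563C and TrA1632W drop most in Δ21168.

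Among eligible genes with opposite responses, the 2 strongest negative contrasts combined a fall in Δ80186 with a rise in Δ21168 of more than 2-fold each. TrC1004W was at 2.3, 3.45 and 2.55 CPM in darkness and 0.465, 0.533 and 0.515 CPM in light in Δ80186, a fall of 2.44 ± 0.58 in log2 units. In Δ21168 it was at 1.02, 0.125 and 0.575 CPM in darkness and 66.6, 92.1 and 106 CPM in light, a rise of 7.18 ± 0.46. The contrast was −9.62 ± 0.73 (adjusted p = 9.8e-08), with 18 reads in the light group of Δ80186 and 18 in the dark group of Δ21168, so its size is less well known than its sign. TrE1116C is abundant and gives a firmer value. It fell from 180, 147 and 119 CPM to 7.06, 4.89 and 4.64 CPM in Δ80186 and rose from 326, 349 and 695 CPM to 4730, 5480 and 5210 CPM in Δ21168. Each group of 3 was separate from the others, and the contrast was −8.23 ± 0.40 (adjusted p = 4.9e-09). In WT both genes rose in light, by 4.13 and 2.11, the direction of Δ21168.

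In the positive direction, TrE1263W rose from 3.97, 5.17 and 8.1 CPM to 32.1, 47.6 and 38.5 CPM in Δ80186. In Δ21168 it fell from 15, 26.7 and 37.4 CPM to 5.59, 2.87 and 4.17 CPM. The contrast was 5.44 ± 0.61 (adjusted p = 7.8e-06), and WT, at 2.37 ± 0.714 CPM in darkness and 3.34 ± 2.21 in light, had no called response (adjusted p = 0.39). TrD1406C had equal dark means in the mutants, 5.05 ± 2.78 CPM in Δ80186 and 5.07 ± 0.896 CPM in Δ21168. In light it was at 19.5, 26.4 and 15.9 CPM in the former and at 1.16, 0 and 0.208 CPM in the latter. Its contrast was 5.54 ± 0.77 (adjusted p = 3.3e-05) but rests on 13 reads in the light group of Δ21168. It was 7.60 without light replicate 1 of Δ21168, 4.92 without replicate 2, and 6.59 with limma's voom and group weights.

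Among the mutants, some genes answered light in Δ80186 with no called response in Δ21168. TrC0947C fell from 969, 889 and 753 CPM in darkness to 13.3, 18.4 and 15.3 CPM in light in Δ80186. In Δ21168 it was low in both conditions, at 23.7, 31.7 and 39.2 CPM in darkness and 27.7, 29 and 26.5 CPM in light. The dark level therefore set the mutants apart at this gene (log2 difference 4.78, against −0.83 in light), and the contrast was −5.61 ± 0.25 (adjusted p = 2.9e-10). WT fell too, from 2950 ± 311 to 357 ± 48.8 CPM. TrD0040C differed more in light (log2 difference −4.08) than in darkness (0.84). It fell from 60.9 ± 7.18 to 1.59 ± 0.411 CPM in Δ80186 and stood at 34 ± 4.07 and 27 ± 1.68 CPM in Δ21168 (contrast −4.92 ± 0.29, adjusted p = 1.8e-09).

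The 2 largest eligible positive contrasts with a response called in Δ80186 and not in Δ21168 started from few reads. TrB1374C rose from 0.767, 0.447 and 0.73 CPM to 45.9, 80.6 and 69.7 CPM in Δ80186, and stood at 1.13, 4.26 and 1.56 CPM in darkness and 2.42, 3.32 and 1.46 CPM in light in Δ21168. The light libraries of Δ80186 lay above all others, WT included (2.05 ± 0.776 CPM in light). The contrast was 6.50 ± 0.64 (adjusted p = 9.2e-07; 5.82 without dark replicate 2 of Δ21168). TrG0196W rose from 0.411 ± 0.596 to 34.5 ± 7.27 CPM in Δ80186 and had 12 reads in light in Δ21168. WT rose as well, to 14.6 ± 15.3 CPM. Its contrast of 8.06 ± 1.68 (adjusted p = 0.0017) was poorly fixed, at 10.44 without dark replicate 3 and 7.43 without dark replicate 2 of Δ80186, 9.06 without light replicate 3 of Δ21168, and 9.34 with voom and group weights.

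Of the eligible genes with a response called in Δ21168 and not in Δ80186, TrA0074C had the largest negative contrast. It was at 0.558, 0.255 and 1.02 CPM in darkness and 0.465, 0.267 and 0.258 CPM in light in Δ80186. In Δ21168 it rose from 0.512, 1.25 and 0.658 CPM to 115, 91.7 and 113 CPM. Dark levels of the mutants overlapped, and the contrast was −7.90 ± 0.95 (adjusted p = 1e-05), with 12 reads in the light group of Δ80186. WT rose to 44.5 ± 18.6 CPM. TrE1044C rose from 0.559 ± 0.421 to 12.5 ± 0.983 CPM in Δ21168, against 4.25 ± 2.72 and 2.16 ± 0.366 CPM in Δ80186 (contrast −5.56 ± 0.76, adjusted p = 4.3e-05). Its contrast was −4.91 without dark replicate 3 of Δ80186 and −6.20 without dark replicate 2 of Δ21168.

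The 2 largest eligible positive contrasts of this class belonged to genes at low levels. TrG1207W fell from 13.3 ± 4.25 to 0.643 ± 0.251 CPM in Δ21168, and was at 2.16 ± 1.74 and 3.78 ± 0.939 CPM in Δ80186 (contrast 5.19 ± 0.66, adjusted p = 7.9e-06; 6.07 without dark replicate 3 of Δ80186). TrE1142C varied widely in darkness in Δ21168, at 3.28, 29.4 and 9.13 CPM, and was at 0.422, 1.71 and 0.729 CPM in light. Its contrast was 4.80 ± 1.23 (adjusted p = 0.0063), and 3.68 without dark replicate 2 or 5.58 without light replicate 2 of Δ21168.

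Where both mutants responded in the same direction, the amounts could differ by orders of magnitude. TrD1308C rose from 1.12, 1.34 and 1.68 CPM to 1230, 1210 and 1170 CPM in Δ80186. In Δ21168 it rose from 0.102, 0.376 and 0.493 CPM to 2.53, 5.12 and 3.44 CPM. Light values of Δ80186 stood far above those of Δ21168 and of WT (84.2 ± 7.42 CPM), and the contrast was 6.32 ± 1.03 (adjusted p = 2.2e-04), with 10 reads in the dark group of Δ21168. TrB0209C rose to 3560 ± 241 CPM in Δ80186 and to 57.1 ± 6.69 in Δ21168, from dark levels of 1.98 ± 0.711 and 2.3 ± 1.29 CPM (contrast 6.17 ± 0.85, adjusted p = 8e-05). WT was again between them, at 591 ± 101 CPM in light.

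In the negative direction, TrG1045C rose from 4.51 ± 1.43 to 10.6 ± 1.03 CPM in Δ80186 and from 2.67 ± 0.184 to 546 ± 63.8 CPM in Δ21168 (contrast −6.45 ± 0.50, adjusted p = 3.3e-07). TrB0212C fell in both. It went from 49.2 ± 8.52 to 0.323 ± 0.257 CPM in Δ80186, as in WT, where it was at 1.14 ± 0.644 CPM in light. In Δ21168 it fell from 430 ± 71.4 to 108 ± 12.5 CPM and so remained well expressed in light. The contrast of −5.16 ± 0.42 (adjusted p = 2.3e-07) was −6.06 without light replicate 1 of Δ80186, the highest of its group (0.621 CPM against 0.178 and 0.172).

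The contrast can also be read as the difference between the mutants in light minus that in darkness. Directly compared, Δ80186 and Δ21168 differed at 4010 genes in darkness (44.2%) and at 5679 in light (62.6%), with the library series as an inseparable part of either difference. For genes chosen by the contrast, the side of the difference in light follows largely from the sign of the contrast. Of the 789 positive genes of at least 2-fold, 313 differed in light with no called difference in darkness, all of them thus higher in Δ80186. Another 216 were higher in Δ80186 in both conditions, 144 were lower in darkness and higher in light, and 95 were lower in darkness with no called difference in light. Among the 772 negative genes, 358 were lower in Δ80186 in light with no called difference in darkness, and 181 changed sides, being higher in darkness and lower in light. A further 111 were lower in both conditions and 92 were higher in darkness with no called difference in light. The median difference of the positive genes was −0.12 in darkness and 1.72 in light, and that of the negative genes 0.31 and −1.48, against 0.01 and −0.03 over all genes tested. The main fit used the same spread of a gene for all groups, although Δ21168 replicates varied most in darkness. With limma's voom and group weights, the mutants differed at 3158 genes in darkness and at 5918 in light. How far the unequal spread shaped the counts by side was not tested.

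**Figure D4:**
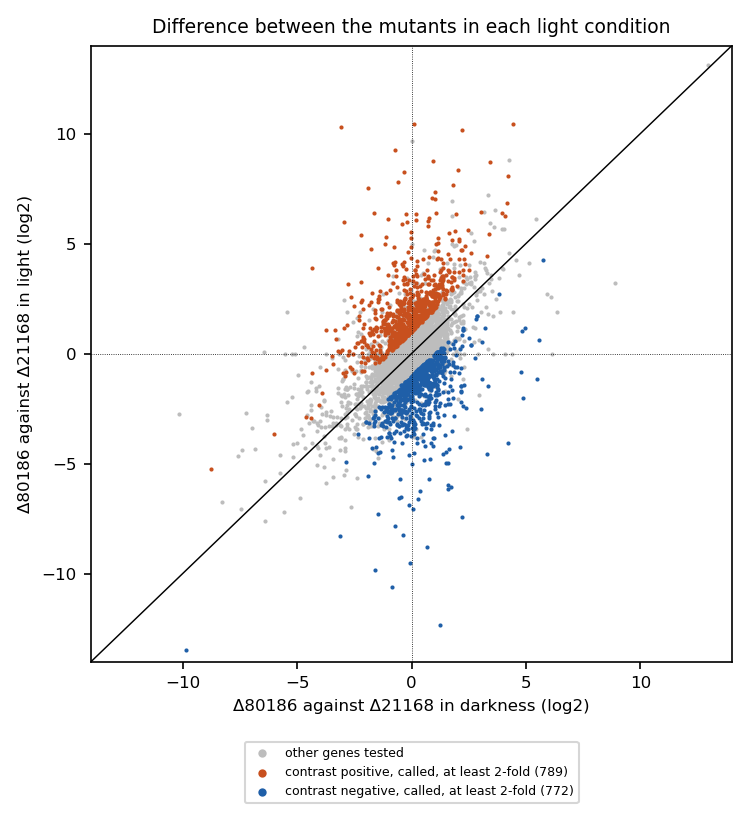
Log2 difference between Δ80186 and Δ21168 in darkness (x axis) and in light (y axis) for the 9079 genes tested; the line marks an equal difference in both. Genes with a called contrast of at least 2-fold spread mostly along the light axis, with medians of 1.72 (positive) and −1.48 (negative) in light.

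Transcripts at high levels had positive contrasts more often than negative ones. Of the 114 genes with a mean above 1000 CPM over the 12 mutant libraries, 32 had a positive contrast of at least 2-fold (28.1%) and 6 a negative one (5.26%). Between 100 and 1000 CPM the shares were 9.73% and 3.67%, or 212 and 80 of 2179 genes. Between 1 and 10 CPM the order turned, with 11.3% positive and 17% negative of 1786 genes. Library totals in place of TMM factors gave 30 and 7 genes above 1000 CPM, and 170 and 100 between 100 and 1000 CPM, so the direction at these levels held under the scaling that called the fewest positive genes of those tried. Splitting genes by level was chosen after the data were seen. For the 32 positive genes above 1000 CPM, the median response was 0.46 in Δ80186, −1.22 in Δ21168 and −0.13 in WT. In light, 31 of the 32 were called higher in Δ80186 than in Δ21168, a side that choice by a positive contrast favours. So were 257 of the 309 positive genes of at least 2-fold at 10 to 100 CPM, and 2770 of all 9079 genes tested.

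**Figure D5:**
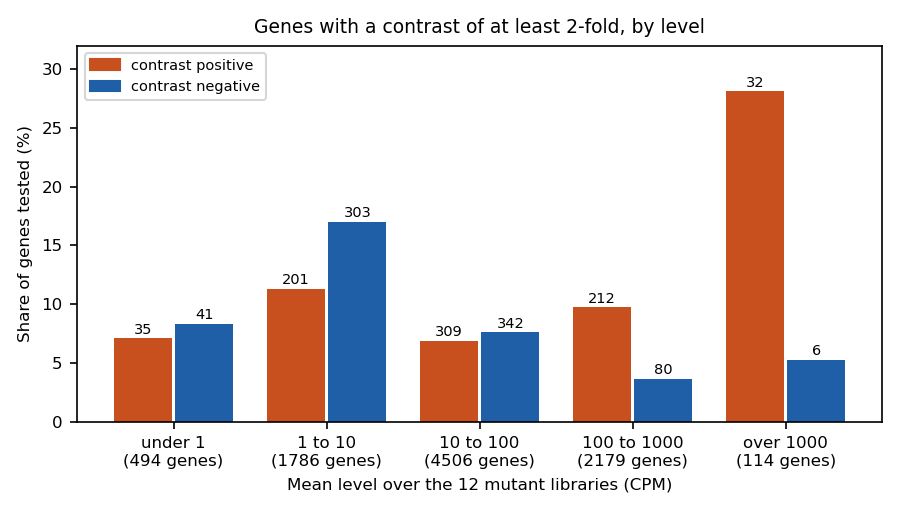
Share of genes with a called contrast of at least 2-fold, in percent of the genes tested (y axis), by mean level over the 12 mutant libraries in CPM (x axis); numbers above bars are counts. Positive genes are 32 of 114 above 1000 CPM, against 6 negative ones.

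The 2 most abundant eligible genes with a positive contrast both fell in light in Δ21168. TrC1130C was at 15700, 17400 and 16400 CPM in darkness and 22500, 19000 and 17400 CPM in light in Δ80186. In Δ21168 it was at 6570, 4680 and 3300 CPM in darkness and fell to 1630, 1900 and 1670 CPM in light. The contrast was 1.73 ± 0.29 (adjusted p = 2.4e-04). WT had no called response (adjusted p = 0.28), at 12900 ± 1690 and 15500 ± 2830 CPM. TrB1588C rose from 4940 ± 1180 to 12400 ± 144 CPM in Δ80186 and fell from 14600 ± 3300 to 6030 ± 841 CPM in Δ21168, a contrast of 2.60 ± 0.59 (adjusted p = 0.0034). It was far lower in WT, at 387 ± 51.1 CPM in darkness and 1120 ± 842 CPM in light.

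The 2 most abundant eligible genes with a negative contrast had small ones, whereas the 6 negative genes of at least 2-fold above 1000 CPM had a median contrast of −2.37. TrA1169W rose by 0.33 in Δ21168, from 1630 ± 131 to 2050 ± 23.7 CPM, and was at 2220 ± 122 and 2100 ± 46.3 CPM in Δ80186 (contrast −0.41 ± 0.10, adjusted p = 0.0027). TrD1010C rose in both, from 882 ± 25.1 to 1480 ± 41.1 CPM in Δ80186 and from 1150 ± 222 to 2830 ± 151 CPM in Δ21168 (contrast −0.55 ± 0.16, adjusted p = 0.011).

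TrE0391W, singled out after its values were seen as the most abundant code in the mutant libraries, differed between the mutants without a called contrast. It was at 23.1, 17.7 and 17.5 CPM in darkness and 6610, 8530 and 7490 CPM in light in Δ80186. In Δ21168 it was at 460, 326 and 146 CPM in darkness and 57700, 68900 and 65500 CPM in light. The log2 difference of Δ80186 from Δ21168 was thus −4 in darkness and −3.09 in light, and its contrast was 0.91 ± 0.56 (adjusted p = 0.21). Without dark replicate 3 of Δ21168 the contrast was called at 1.28 (adjusted p = 0.046). Over the 20 alternatives the adjusted p ranged from 0.046 to 0.45, and without dark replicate 1 of Δ21168 the contrast was 0.54.

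Genes chosen by their WT response gave a summary of the mutant responses. WT libraries enter neither mutant response, but the filter, scaling and spread behind the choice drew on all 18 libraries. With genes chosen in a fit of the 6 WT libraries alone, the mean responses differed (Δ80186 minus Δ21168) by −0.38 for 673 raised genes. For 1349 lowered genes they differed by 0.11. The 775 genes that light raised in WT by 2-fold or more had a mean response of 0.87 ± 0.03 (SE over libraries, log2 CPM with a prior count of 2) in Δ80186 and 1.23 ± 0.01 in Δ21168, a difference of −0.36 ± 0.03. In darkness the mean level of the set was 2.96 to 3 in the Δ80186 libraries and 3.22 to 3.27 in the Δ21168 libraries. In light it was 3.8 to 3.87 and 4.47 to 4.48, so no groups overlapped. A response in the same direction of at least 2-fold was called for 269 of the 775 in Δ80186 and for 384 in Δ21168. Among all 9079 genes tested, 560 and 664 were called higher in light by at least 2-fold. The contrast was negative for 305 of them (39.4%) and positive for 148 (19.1%), beside 22.2% and 21.6% of all genes tested.

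For the 1407 genes that light lowered in WT by 2-fold or more, the difference between the mean responses of the mutants was within its error. Their mean response was −1.76 ± 0.04 in Δ80186 and −1.86 ± 0.09 in Δ21168, a difference of 0.10 ± 0.10. It ranged from 0.05 to 0.21 with a mutant library left out, the latter without dark replicate 1 of Δ21168. Contrasts were called in both directions in this set, 339 positive (24.1%) and 300 negative (21.3%). These shares were near those of all genes tested, 21.6% and 22.2%. Single genes differed in either direction, as among all genes tested, while the mean response of the set did not separate the mutants. Its mean level did, with the library series as an inseparable part. In darkness it was 4.16 to 4.21 in the Δ80186 libraries and 3.76 to 4.07 in the Δ21168 libraries. In light it was 2.36 to 2.49 and 2.04 to 2.1.

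The WT response lay between those of the mutants for 516 of the 789 positive genes of at least 2-fold (65.4%) and for 487 of the 772 negative ones (63.1%), against 37.6% of all genes tested. A wide gap between the mutants makes this position more likely, so the share describes these genes only. For positive genes the WT response lay below both mutants in 171 and above both in 102. For negative genes the order was 101 and 184.

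Genes with like contrasts followed each other in number order more often than their share among all genes tested. Of the positive genes of at least 2-fold, 15.8% were followed in number order, among tested codes of the same letter, by another such gene, beside 8.69% positive genes among all tested. For negative genes the share was 20.9%, beside 8.5%. Neighbours of the opposite sign made up 7.48% and 6.48%. Whether reads shared by overlapping neighbours add to this was not tested. There were 19 positive and 27 negative runs of at least 3 such genes, holding 60 and 94 genes, and the longest had 4 tested codes. By letter, the share of genes with a contrast of at least 2-fold was 15.2% (E) to 21.7% (F).

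The first of the longest runs in number order was TrA0074C to TrA0078W among negative genes and, among positive genes, TrB0808W to TrB0811W. TrA0078W rose from 7.95 ± 1.14 to 21 ± 0.629 CPM in Δ21168 and was at 7.35 ± 0.345 and 7.01 ± 1.26 CPM in Δ80186 (contrast −1.47 ± 0.20, adjusted p = 2e-05). All 4 tested codes of its run had a higher light level in Δ21168, with responses of 1.4 to 7.09 there, 1.36 to 5.44 in WT and −0.81 to 0.81 in Δ80186. In the positive run, TrB0808W rose from 114 ± 6.98 to 168 ± 7.3 CPM in Δ80186 and fell from 35 ± 8.6 to 17.8 ± 1.42 CPM in Δ21168 (1.53 ± 0.18, adjusted p = 3.4e-06). TrB0811W went from 301 ± 48.5 to 550 ± 25.5 CPM and from 134 ± 27.7 to 27.2 ± 3.32 CPM (3.17 ± 0.36, adjusted p = 1.4e-05). The 4 codes of this run had responses of 0.56 to 1.22 in Δ80186 and −2.3 to −0.97 in Δ21168.

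A run singled out after its values were seen, TrB0848C to TrB0851C, kept more reads in light in Δ21168 than in Δ80186 or WT. TrB0848C had 2464 reads in darkness and 6 in light in the 3 libraries of Δ80186, 553 and 169 reads in Δ21168, and 995 and 0 in WT. Its level went from 56.1 ± 6.66 to 0.176 ± 0.178 CPM in Δ80186 and from 18.4 ± 0.668 to 5.54 ± 0.892 CPM in Δ21168, with a fitted contrast of −6.57 ± 0.40 (adjusted p = 9e-09) whose size depends on those 6 reads. Leaving out light replicate 2 of Δ80186 gave −7.53, and leaving out light replicate 1 gave −5.96. The other 3 codes had 1 to 3 reads in light in Δ80186 and 0 in WT, too few for a fold, and 13 to 90 reads in light in Δ21168.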

How the data were processed

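The authors deposited whole-number read counts per gene, not normalised, for 18 libraries. Per the labels' protocols, libraries were stranded and depleted of ribosomal RNA, and the aligner was HISAT2 2.2.1, per the submitters' processing notes. Counting settings, the treatment of multiply aligned reads and the genome build were not given in the sources used here, so reads of overlapping, antisense or near-identical genes cannot be told apart. Of 10879 rows, 0 matched the reference table.

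Genes were kept with filterByExpr (minimum count 10, total 15), which left 9079. One edgeR 4.0.16 fit (R 4.3.3) of all 18 libraries, with TMM factors, robust dispersions, 1 mean for each of the 6 groups and 12 residual df, gave all comparisons by quasi-likelihood F tests with Benjamini-Hochberg adjustment. SE is the absolute log2 change over the square root of F and understates the error of genes with few reads. No replicate pair agreed within sampling noise (chi-square per degree of freedom 4.37 to 85.5). DESeq2 1.42.0, limma 3.58.1 and other alternatives are in the closing section.

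Genes named were called in the contrast and in all 12 fits without a mutant library, with at least 5 CPM in the highest group and 10 reads in each. The 2 per direction were taken by smallest p, by size in each response class and by level, plus the ends of the first longest runs in number order, the mat1-1 rows and the codes without reads in 1 mutant. Members and rules were chosen with earlier results of these data known.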

Additional observations from a re-analysis of the deposited data

Results flagged for a closer look

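The contrast is itself a test of the difference between 2 light responses, and each result below is given because that test passed. It did so for 3977 genes. Positive contrasts on the log2 scale were 4.10 (TrB1563C), 3.37 (TrA1632W), 5.54 (TrD1406C), 5.44 (TrE1263W), 8.06 (TrG0196W), 6.50 (TrB1374C), 5.19 (TrG1207W), 4.80 (TrE1142C), 6.32 (TrD1308C), 6.17 (TrB0209C), 1.73 (TrC1130C), 2.60 (TrB1588C), 1.53 (TrB0808W) and 3.17 (TrB0811W). Negative contrasts were −3.52 (TrB1415W), −3.67 (TrE1235W), −9.62 (TrC1004W), −8.23 (TrE1116C), −5.61 (TrC0947C), −4.92 (TrD0040C), −7.90 (TrA0074C), −5.56 (TrE1044C), −6.45 (TrG1045C), −5.16 (TrB0212C), −0.41 (TrA1169W), −0.55 (TrD1010C) and −1.47 (TrA0078W).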

How the results depend on the processing

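All 27 named contrasts kept their sign and call under the 20 alternatives. For the 12 fits without a mutant library this was a condition of being named. The number of genes called in the contrast was 3640 to 4089 under other scalings, filters, fits and tools and 3520 to 4059 with a mutant library left out. With the replicate number as a block it was 3868. Same-numbered mutant libraries did not deviate together (correlations −0.26 to 0.14, with 3 of 12 libraries closest to their own number). No pairing by number was thus seen, and shared handling of same-numbered cultures was not tested. Without the filter on low counts 1 mating type row was tested (adjusted p = 1). The difference between the mean responses of the mutants for genes raised in WT was −0.48 with library totals and −0.44 with upper-quartile factors. It was −0.52 for genes raised at least 4-fold, and the cause was not tested. For genes lowered in WT it turned to −0.01 with library totals, within its error. Upper-quartile factors called 1651 positive and 2371 negative contrasts (41% positive). Of the 3977 calls, 2845 held under all 20 alternatives. Of the genes under 1 CPM 15.4% were called, against 46.4% at 10 to 100 CPM. At 2-fold or more the shares were 15.4% and 14.4%, and how far depth limits the calls was not tested.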
